A study of Mus musculus with 6 samples.

Results

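Cytosolic ribosomal proteins are the protein part of the ribosomes that translate nuclear mRNAs. Their genes were taken from the table of gene counts by symbol: every symbol that starts with Rpl or Rps followed by a digit, together with Rplp0, Rplp1, Rplp2 and Rpsa, without the S6 kinases (Rps6k), Rps19bp1 and rows named as pseudogenes. This gave 87 of the 24411 genes of the table, 53 of the large and 34 of the small ribosomal subunit. Their mRNA was measured by RNA sequencing in EDL, a fast-twitch hindlimb muscle, of 3 mAktDKO mice (Mlc1f-Cre:Akt1/2-floxed) and 3 control floxed mice (Akt1/2-floxed, without the Cre), all on the C57BL/6J background and 50 weeks old. Both groups carried the floxed alleles of Akt1 and Akt2, and in the mAktDKO mice the Cre was knocked in at the myosin light chain 1f promoter, which acts mainly in fast-twitch fibres. The question here was whether the mRNAs of the ribosome differed in muscle with deletion of Akt, a kinase upstream of mTOR and of protein synthesis.

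A ribosome holds 1 copy of nearly every ribosomal protein, so the mRNAs of the family are in general kept at broadly matched levels. Their mRNAs begin with a run of pyrimidines, the 5′ terminal oligopyrimidine (TOP) tract, through which mTOR controls how well they are translated, and LARP1 and the 4E-BP proteins act in this control. Control through the TOP tract changes the ribosomes on an mRNA and need not change the amount of the mRNA, which is what was measured here. Skeletal muscle also contains a ribosomal protein of its own, Rpl3l, a paralog of the general Rpl3 that is restricted to striated muscle.

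The starts of 8 genes whose values are given below are printed first, since the TOP tract lies there. They were chosen after the values were seen, as members of high level or large fold change. RefSeq (GRCm38.p6) gave the sequence around the annotated start for 66 of the 87 genes. Each line holds 30 bases, 10 before the start and 20 from it, 5′ to 3′ on the gene's strand, with the longest run of C and T in capitals.

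Rpl39: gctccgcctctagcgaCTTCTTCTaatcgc

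Rpl27: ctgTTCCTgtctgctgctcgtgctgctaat

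Rpl37a: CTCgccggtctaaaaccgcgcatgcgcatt

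Rps9: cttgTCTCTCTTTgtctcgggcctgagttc

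Rpl18: ctcgcaggccgCTCTTTCCCCgcccactcc

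Rps2: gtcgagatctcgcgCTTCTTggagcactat

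Rplp0: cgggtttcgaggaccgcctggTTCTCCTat

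Rpl3l: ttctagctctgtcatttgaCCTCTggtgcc

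These windows lie at chrX:37085203-37085232 (minus strand) and, on the plus strand, at chr11:101442235-101442264, chr1:72711250-72711279, chr7:3704031-3704060, chr7:45718061-45718090, chr17:24720053-24720082, chr5:115559457-115559486 and chr17:24727816-24727845, in the order printed. The run was 8, 9 and 10 bases long in Rpl39, Rps9 and Rpl18, 7 in Rplp0, 6 in Rps2, 5 in Rpl27 and Rpl3l and 3 in Rpl37a. An annotated start can lie some bases from the one a tissue uses, so a short run says only that these letters are not in this window. In Rpl39, Rpl27, Rpl37a and Rps9 the GENCODE transcript used below for lengths starts outside the window. Its first base is at chrX:37085402, chr11:101442298, chr1:72711290 and chr7:3703993. The runs of these genes, short or long, therefore need not lie at the start of their mRNA. All counts of runs here rest on the RefSeq starts. A run of at least 8 C or T was present in 21 of the 66 ribosomal protein genes (31.8%), in 11.2% of all 27025 genes with a start window (11.4% of the 9743 tested genes that had one), and in 6 of 68 mitochondrial ribosomal protein genes (8.82%). The ETS-type motif CGGAAGT, searched on both strands from 250 bases before to 50 bases after the start, was found in 22 of the 66 genes (33.3%), in 6.59% of all genes and in 13.1% of the tested genes. TATAAA, searched in the same way, was found in 7 of the 66 (10.6%), in 14.2% of all genes and in 7.24% of the tested genes. The median log2 fold change between the genotypes was -0.07 for the 20 tested members with a run of at least 8 and -0.04 for the 43 with a shorter one.

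Total estimated counts were between 13738795 and 15445523 per mouse. Of the targeted genes, Akt2 had 51.0 CPM (counts scaled to a common library size, here with TMM) in the mAktDKO and 149 CPM in the control mice (log2 fold change -1.55, adjusted p = 0.000923 in edgeR's quasi-likelihood test), with each mAktDKO mouse below each control mouse, and Akt1 had 55.7 against 66.2 CPM (log2 fold change -0.25, adjusted p = 0.115). The 12 markers of fast fibres, which define this muscle, summed to between 122823 and 137663 CPM in the mAktDKO mice and between 143820 and 154998 CPM in the control mice.

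Of the 87 members, 84 passed the filter on low counts. The rest were Rpl10l, a testis paralog of Rpl10 that was at 0 in all 6 mice, Rpl39l, the corresponding paralog of Rpl39 with 2 counts in 1 mouse and 0 in the others, and Rps27, whose reads are taken up below. The family as a whole took 0.846%, 0.813% and 0.737% of all counts in the mAktDKO mice and 0.773%, 0.758% and 0.752% in the control mice. The groups overlapped, and the mAktDKO mice held both the highest and the lowest share.

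In edgeR's quasi-likelihood test no member differed between the genotypes at an adjusted p of 0.01, the limit in the study's methods, or at 0.05. Over all 12892 tested genes these thresholds called 3 genes (0.0233%) and 152 genes (1.18%). An unadjusted p under 0.05 was reached by 17 members. Of these, 11 were lower in the mAktDKO mice (13.1% of the 84, with a background of 13.1% of all tested genes). The other 6 were higher (7.14%, background 11.4%), and neither share exceeded its background. With library totals 3 were lower (3.57%, background 5.02%) and 18 higher (21.4%, background 23.0%). This scaling moves all genes by nearly the same amount, so the shift is not particular to the members. With the trend with transcript length removed 7 were lower (8.33%, background 14.5%) and 13 higher (15.5%, background 9.54%). Leaving out mAktDKO mouse 1 gave 17 lower (20.2%, background 10.3%) and 3 higher (3.57%, background 8.53%), and leaving out mAktDKO mouse 2 gave 5 lower (5.95%, background 8.08%) and 2 higher (2.38%, background 6.30%). With TMM scaling and all 6 mice, the groups did not overlap in 20 members that were lower (23.8%, background 16.6%) and in 12 that were higher (14.3%, background 14.5%). DESeq2, the study's own tool and here an alternative, called 1 member at 0.01, Rpl37a, beside 3.55% of all genes. At 0.05 it called 8 of the 82 members to which it gave an adjusted p (9.76%), of which 6 were lower and 2 higher, beside 8.17% of all genes.

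The members' log2 fold changes were small and lay on both sides of 0. Their median was -0.05, beside 0.02 for all tested genes, and the middle 50% lay between -0.14 and 0.06, beside -0.18 and 0.22 for all genes. The median size, leaving out the sign, was 0.12 for the members and 0.20 for all genes. Of the 84 members, 50 were lower and 34 higher in the mAktDKO mice, beside 47.5% and 52.5% of all tested genes. This split depends on the scaling: with library totals in place of TMM, 21 were lower and 63 higher, beside 29.6% and 70.4% of all genes, and the median of all genes moved to 0.16 and that of the members to 0.09. A change of scaling moves all genes by nearly the same amount, so the members' median stayed 0.07 below that of all genes and this could hardly differ. It lay 0.05 above that of all genes after the trend of fold changes with transcript length was removed.

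**Figure D1:**
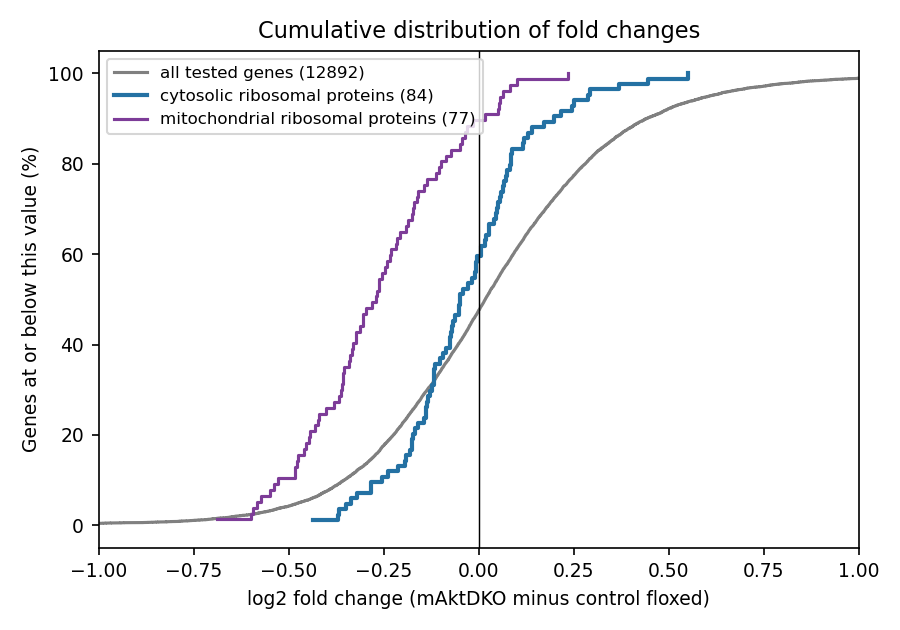
Cumulative share of genes (y axis, percent) at or below each log2 fold change (x axis, mAktDKO minus control floxed) for all 12892 tested genes, the 84 tested cytosolic ribosomal proteins and the 77 mitochondrial ribosomal proteins. The curve of the cytosolic ribosomal proteins is steeper than that of all genes and crosses 50% at -0.05, while that of the mitochondrial ribosomal proteins crosses it at -0.27.

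The comparison of the large with the small subunit asked whether the mRNAs of 1 side of the ribosome differed more. The median log2 fold change was -0.05 over the 51 tested members of the large subunit and -0.04 over the 33 of the small subunit. In the large subunit 32 were lower and 19 higher, and in the small subunit 18 were lower and 15 higher, under TMM scaling. Summed over its members, the large subunit measured 4776, 4577 and 4565 CPM in the 3 mAktDKO mice against 5064, 4713 and 4722 CPM in the 3 control mice. The small subunit had 3106, 2900 and 2911 CPM in mAktDKO muscle, compared with 3285, 3095 and 3091 CPM in control muscle. In both subunits the first mAktDKO mouse lay within the range of the control mice, and the other two lay below all control mice. The log2 ratio of the large to the small sum was 0.64 ± 0.020 (SD, n = 3) in the mAktDKO mice and 0.61 ± 0.0091 (SD, n = 3) in the control mice, with overlapping groups, so the balance of the subunits' mRNAs differed by 0.03 on the log2 scale. The direction of the sums holds for TMM scaling: with library totals the median log2 fold change was 0.090 in the large and 0.098 in the small subunit, and the family's share of all counts was, as given above, highest in 2 mAktDKO mice.

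**Figure D2:**
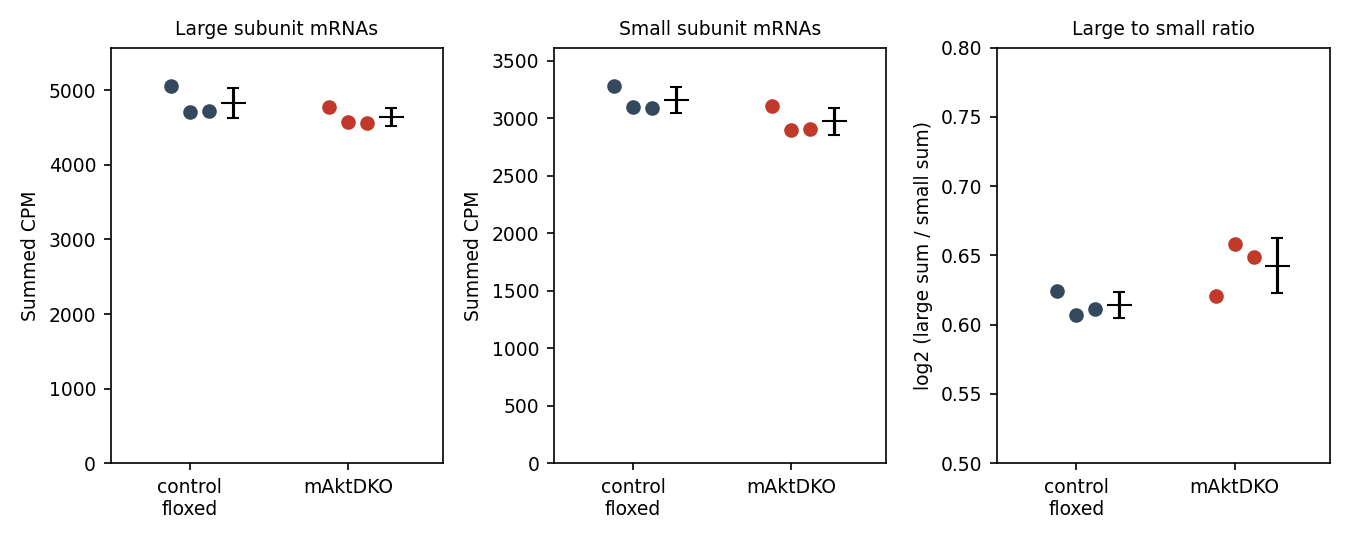
Summed CPM of the large subunit mRNAs (left) and small subunit mRNAs (middle), and the log2 ratio of the sums (right, axis not starting at 0), with 1 point per mouse and the group mean ± SD beside the points. With TMM scaling, the sums of both subunits are lower in 2 of the 3 mAktDKO mice than in all control mice, and the ratio stays between 0.61 and 0.66 in all 6 mice.

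Levels between genes were compared per kb of transcript (CPM per kb, mean over 6 mice). Rplp0, the protein at the base of the acidic stalk that recruits translation factors, had the highest mean level over both groups with 290 ± 11.1 CPM per kb (SD, n = 6). Rps2, a protein at the mRNA entry channel, followed with 268 ± 30.6 (SD, n = 6), then Rplp1, another stalk protein, with 238 ± 21.5 (SD, n = 6), Rpl3l with 235 ± 39.4 (SD, n = 6) and Rpl23a, at the exit tunnel, with 230 ± 11.9 (SD, n = 6). Neighbours in this order differed by less than the larger of their SDs. The order was another in each group: in the control mice Rps2 (295), Rplp0 (281) and Rpl3l (263) were the highest, and in the mAktDKO mice Rplp0 (299), Rplp1 (242) and Rps2 (242), with Rpl3l at 207 CPM per kb. Over the 75 tested members of which at least 50% of the 37-base windows occur in no other gene of the table, the median level was 113 CPM per kb and the middle 50% lay between 77.7 and 156. Across the 84 tested members, the log2 fold change had Spearman's rho of -0.29 with the log2 level, -0.08 with the length and -0.08 with the GC content of the transcript. These are descriptions over genes measured in the same 6 libraries, and over all genes the same measure was -0.19 with the level, 0.20 with the length and -0.26 with GC.

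Apart from Rps4l, which rested on few reads and is described further on, the members with the largest log2 fold changes in either direction were Rpl39 and Rpl37a. Rpl39, a short protein that lines the tunnel through which the new peptide leaves (X chromosome of GRCm38, 37082520 to 37085402), measured 48.2, 53.5 and 48.7 CPM in the 3 mAktDKO mice against 33.3, 40.6 and 36.7 CPM in the 3 control mice. Every mAktDKO mouse lay above every control mouse, giving a log2 fold change of 0.45 (SE 0.096) and an adjusted p of 0.0573 from edgeR.

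Rpl31, which sits beside the tunnel exit, had 53.6, 56.3 and 48.6 CPM in mAktDKO muscle, compared with 36.8, 46.5 and 46.1 CPM in control muscle. The groups did not overlap, but the gap between the lowest mAktDKO mouse and the highest control mouse was small beside the spread within the groups (log2 fold change 0.29, edgeR adjusted p = 0.152, and 0.19 without control mouse 2). The members that were higher at an unadjusted p under 0.05 also included Rpl17, Rpl27 and Rps27rt, with log2 fold changes of 0.20, 0.24 and 0.22. Rpl31 and Rps27rt share many of their reads with copies, as described further on.

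Among the lower members, Rpl37a, a zinc-binding protein of the large subunit (chromosome 1, 72711290 to 72713813), measured 85.6, 71.6 and 75.2 CPM in the 3 mAktDKO mice against 114, 105 and 95.6 CPM in the 3 control mice. All control mice lay above all mAktDKO mice, and its log2 fold change came to -0.43 (SE 0.099), with an adjusted p of 0.0598 from edgeR and 0.00633 from DESeq2. Rpl18 (chromosome 7, 45718071 to 45720835), another large subunit protein, had 69.6, 64.3 and 68.5 CPM against 97.7, 78.8 and 84.5 CPM. Its groups did not overlap (log2 fold change -0.37, edgeR adjusted p = 0.0760).

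Rps9 had 108, 96.9 and 104 CPM in mAktDKO muscle, compared with 148, 128 and 123 CPM in control muscle, giving a log2 fold change of -0.37 (SE 0.093, edgeR adjusted p = 0.0725). Rps2 had 254, 231 and 239 CPM against 304, 296 and 282 CPM, giving a log2 fold change of -0.28 (SE 0.080, edgeR adjusted p = 0.0878). Rps3 had 107, 97.8 and 98.1 CPM against 138, 116 and 115 CPM, giving a log2 fold change of -0.28 (SE 0.095, edgeR adjusted p = 0.126). With TMM scaling the groups overlapped in none of these, beside 16.6% of all tested genes and 23.8% of the members that were lower without overlap. With library totals the log2 fold changes were -0.23 for Rps9, -0.15 for Rps2 and -0.14 for Rps3. All 3 proteins lie around the channel by which the mRNA enters the small subunit. This group was put together after the values were seen, and it has no test. The same holds for 9 proteins of the wall and rim of the peptide exit tunnel, which lay on both sides of 0: Rpl39, Rpl31 and Rpl17 were higher as above, Rpl4, Rpl19 and Rpl35 lay within 0.02 of 0, Rpl22 and Rpl23a had log2 fold changes of -0.12 and -0.12 (both positive with library totals), and Rpl26 had 0.12 on few reads, which its copy's reads turn to -0.12. The value of Rpl22 was -0.05 without control mouse 2 and -0.19 without mAktDKO mouse 3.

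Rps14, which contributes to the platform of the small subunit, measured 121, 98.4 and 105 CPM in the 3 mAktDKO mice against 144, 133 and 132 CPM in the 3 control mice (log2 fold change -0.34, edgeR adjusted p = 0.0879). Besides Rpl3l, which is described further on, the other members that were lower at an unadjusted p under 0.05 were Rpl22l1, Rpl10a, Rpl8, a protein at the peptidyl transferase centre, and Rplp2, with log2 fold changes of -0.32, -0.25, -0.21 and -0.24. The proteins of the acidic stalk lay on both sides of 0. Rplp0 had 407, 407 and 405 CPM in mAktDKO muscle, compared with 395, 374 and 377 CPM in control muscle (log2 fold change 0.09, edgeR adjusted p = 0.49). Rplp2, which shares 73.0% of its 37-base windows with Wdr89, stood at -0.24 on the log2 scale (adjusted p = 0.178), and Rplp1 at 0.05 (adjusted p = 0.808), whose sign turned when control mouse 3 or 4 was left out. Rps6, the ribosomal protein that S6 kinase phosphorylates downstream of mTOR, had 131 ± 5.49 CPM (SD, n = 3) in mAktDKO muscle, compared with 141 ± 7.55 CPM (SD, n = 3) in control muscle, with overlapping groups and a log2 fold change of -0.10 that was 0.04 with library totals.

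**Figure D3:**
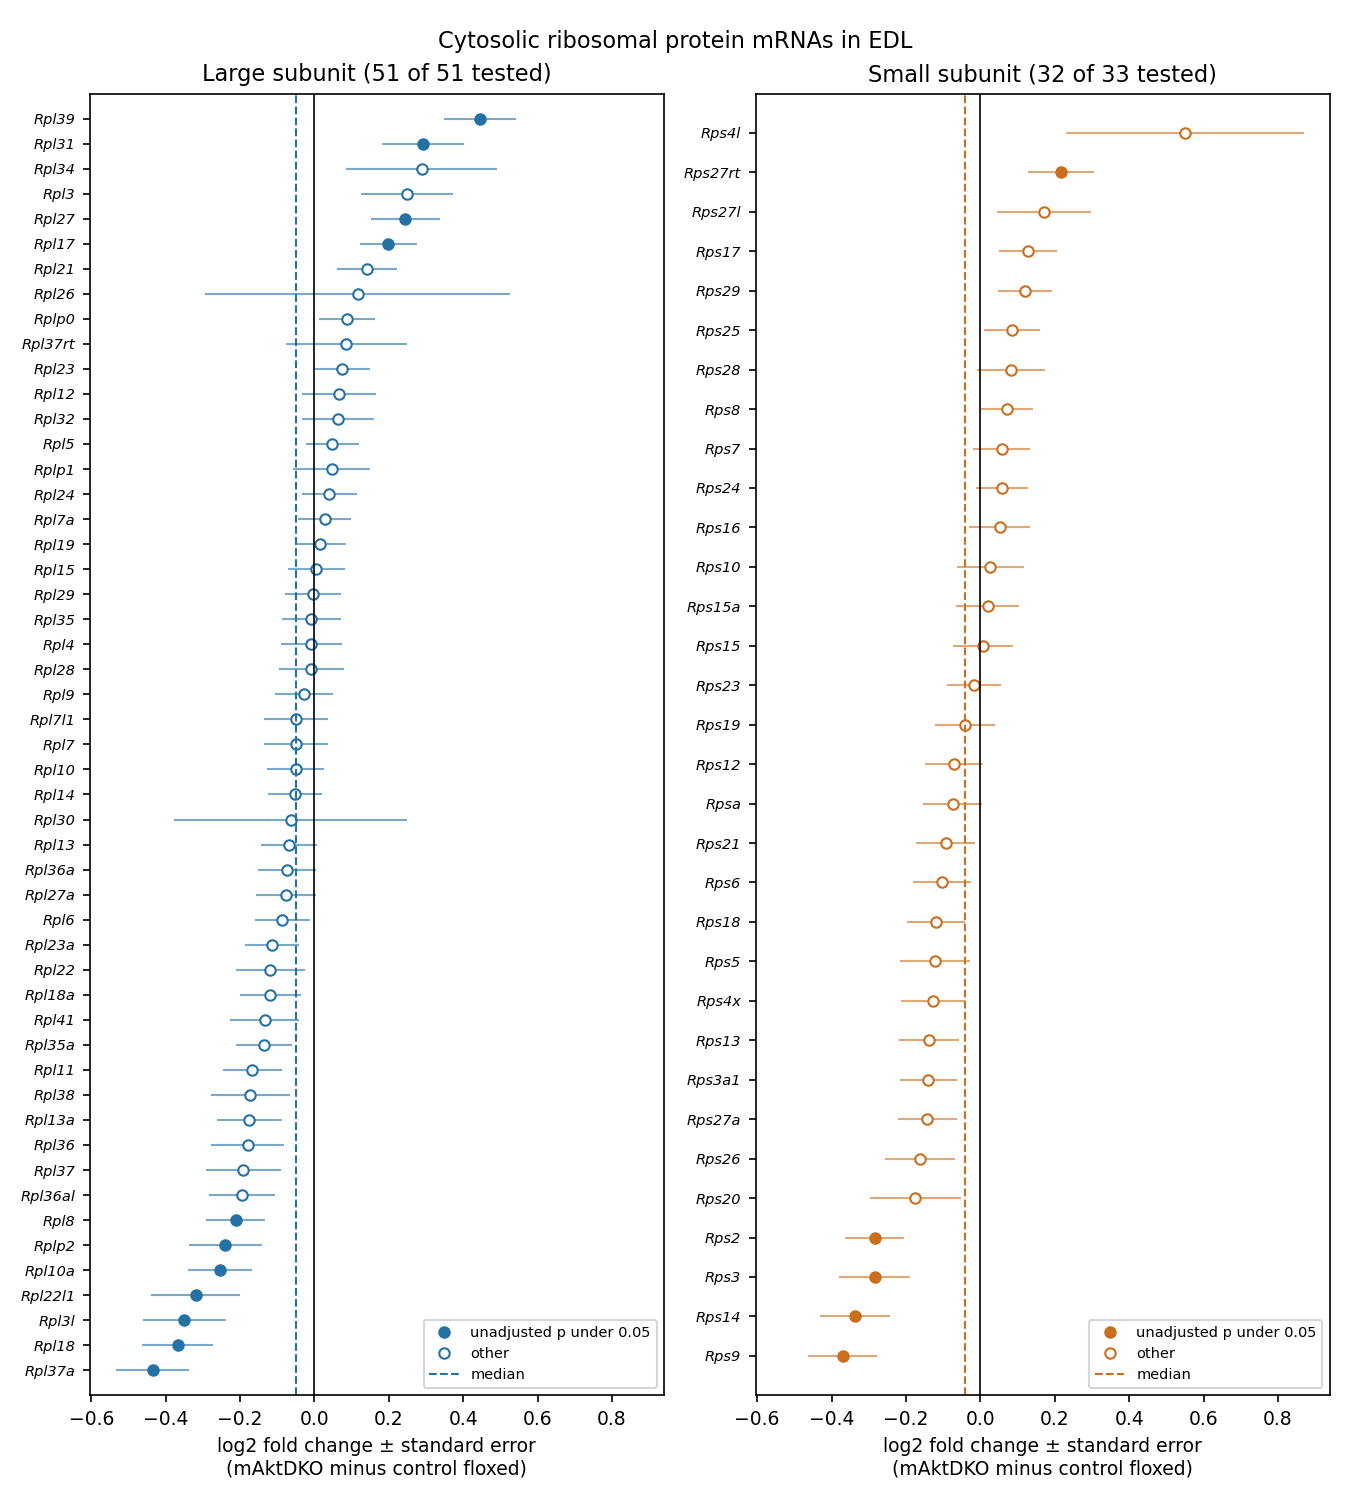
Log2 fold change (x axis, mAktDKO minus control floxed, with its standard error) of each tested member of the large subunit (left, 51 genes) and of the small subunit (right, 32 of 33 genes drawn), in order. Filled points have an unadjusted p under 0.05, dashed lines are the medians (-0.05 and -0.04), and most members lie within 0.2 of 0.

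**Figure D4:**
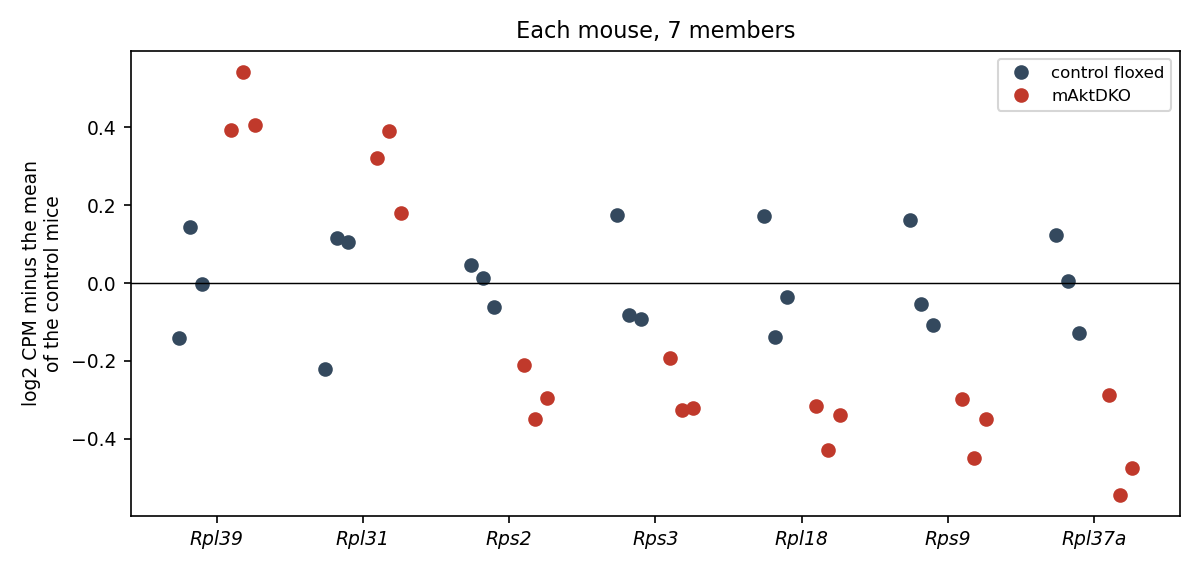
Log2 CPM of 7 members in each of the 6 mice, as the difference from the mean of the control mice. With TMM scaling, all mAktDKO mice lie above all control mice in Rpl39 and Rpl31, and all lie below in Rps2, Rps3, Rpl18, Rps9 and Rpl37a.

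The muscle paralog Rpl3l was compared with Rpl3, since both proteins take the same place near the peptidyl transferase centre and a ribosome holds 1 of them. The coding sequences were identical at 74.2% of 1209 aligned positions and share no stretch of 37 bases, the read length. The reads of the 2 genes can thus be told apart from each other. The first 60 coding bases are printed to show this, with the bases of Rpl3l that differ from Rpl3 in capitals (13 of the 60).

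Rpl3: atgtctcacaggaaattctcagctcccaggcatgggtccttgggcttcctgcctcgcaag

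Rpl3l: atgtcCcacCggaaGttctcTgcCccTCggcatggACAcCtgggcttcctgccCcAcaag

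The Rpl3 transcript lies on chromosome 15 of GRCm38 from 80077791 to 80083406 (minus strand) and the Rpl3l transcript on chromosome 17 from 24727820 to 24736143 (plus strand). Rpl3l measured 295, 257 and 300 CPM in the 3 mAktDKO mice against 416, 343 and 327 CPM in the 3 control mice. With TMM scaling all mAktDKO mice lay below all control mice, giving a log2 fold change of -0.35 (SE 0.11, edgeR adjusted p = 0.115). Rpl3 had 59.0, 60.2 and 46.0 CPM against 41.5, 45.8 and 51.7 CPM, with overlapping groups and a log2 fold change of 0.25 (SE 0.12, edgeR adjusted p = 0.246). With library totals the log2 fold change was -0.21 for Rpl3l and 0.39 for Rpl3.

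The log2 ratio of Rpl3l to Rpl3 counts was 2.32, 2.09 and 2.71 in the mAktDKO mice and 3.32, 2.90 and 2.66 in the control mice. The third mAktDKO mouse lay above the lowest control mouse, so the groups overlapped. The mean was 2.37 ± 0.31 (SD, n = 3) in the mAktDKO mice and 2.96 ± 0.34 (SD, n = 3) in the control mice, a difference of -0.59, or 0.665 times the control ratio (exact permutation test, two-sided p = 0.2, where 0.1 is the smallest p that 3 mice against 3 allow). Without control mouse 2, which had the highest ratio, the difference was -0.41. Rpl3l made up 83.7% of the summed counts of the pair in the mAktDKO mice and 88.5% in the control mice, and the sum of both genes was 339 and 408 CPM. Per kb of transcript, Rpl3l exceeded Rpl3 by 5.07-fold in the mAktDKO mice and by 7.67-fold in the control mice, and it was the main form in every mouse.

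**Figure D5:**
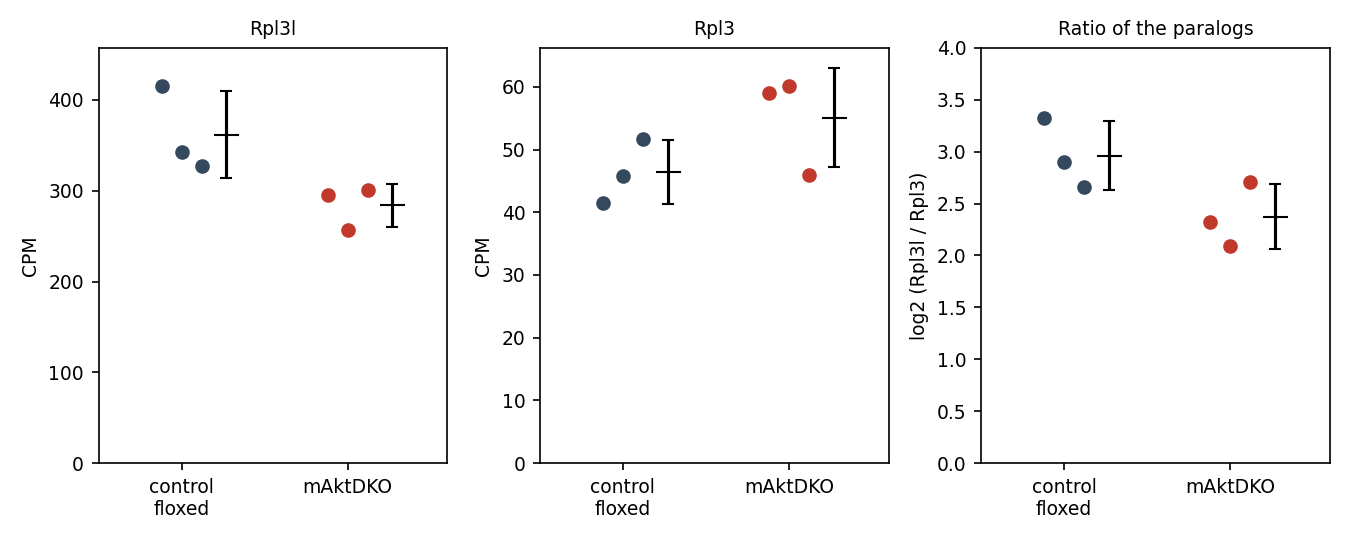
CPM of Rpl3l (left) and Rpl3 (middle) and the log2 ratio of the 2 genes (right), with 1 point per mouse and the group mean ± SD beside the points. With TMM scaling, Rpl3l is lower in all mAktDKO mice (257 to 300 CPM) than in the control mice (327 to 416 CPM), while the groups overlap for Rpl3 and for the ratio.

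In bulk muscle RNA, fewer cells of a type and less RNA per cell cannot be told apart, and marker lists of several cell types lay higher or lower with the genotype, although no marker passed an adjusted p of 0.01 in edgeR. All 12 fast fibre markers were lower in the mAktDKO mice (median log2 fold change -0.31), and 8 had groups that did not overlap (66.7%, background 16.6%). Over all tested genes 47.5% were lower and 52.5% higher, against which the counts here stand. Of the other lists, 7 of 8 slow fibre markers (median 0.46, summed level 770 to 1460 CPM against 684 to 978 CPM), 8 of 8 markers of fibro-adipogenic progenitors (median 0.41, 18374 to 21819 CPM against 7347 to 18479 CPM), 8 of 10 of macrophages and leukocytes (median 0.39, 162 to 201 CPM against 120 to 175 CPM), 7 of 7 of adipocytes (median 1.00, 185 to 331 CPM against 156 to 215 CPM), 5 of 6 of nerve and Schwann cells (median 0.26, 270 to 352 CPM against 238 to 289 CPM) and 5 of 5 of red blood cells (median 0.47, 150 to 320 CPM against 114 to 168 CPM) were higher. Endothelial markers were higher in 5 of 8 (median 0.04, 556 to 639 CPM against 479 to 601 CPM) and satellite cell markers in 2 of 6 (median -0.20, 1779 to 2063 CPM against 2276 to 3393 CPM). Nearly all of the satellite cell sum was Des, with a mean of 1874 of 1922 CPM in mAktDKO muscle. In control muscle it was 2627 of 2683 CPM, so this sum describes Des and not the list. Of the others, Cdh15 had a log2 fold change of -0.42 and Myf5 one of 0.59. The markers of all lists passed the filter. The red blood cell row Hbb-bs was listed at 0 in the 3 control mice and at 9.21 to 23.5 CPM in the mAktDKO mice, so it passed only through the group in which it was high. Several of these medians rest on 1 mouse. Without control mouse 2 they were 0.20 for fibro-adipogenic progenitors, 0.17 for macrophages and leukocytes, -0.06 for satellite cells and 0.09 for endothelium. Without control mouse 3 they were 0.73 for slow fibres, 0.11 for endothelium and 0.69 for red blood cells, and without control mouse 4 -0.32 for satellite cells and -0.01 for endothelium. Without mAktDKO mouse 1 they were 0.18 for red blood cells and -0.01 for endothelium, and without mAktDKO mouse 2 0.63 for adipocytes, 0.28 for slow fibres and 0.08 for endothelium. Without mAktDKO mouse 3 they were -0.12 for satellite cells, 0.09 for endothelium and 0.72 for red blood cells. With library totals the median was -0.17 for fast fibres, -0.06 for satellite cells, 0.40 for nerve and Schwann cells and 0.18 for endothelium, which stood at -0.04 with the length trend removed. The part of these cell types in the values of Rpl3l, Rpl3 and the other members was not tested.

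The ratios of the other paralog pairs in which both genes passed the filter were compared in the same way. With 3 mice against 3 the exact test cannot go below 0.1, so it could call no ratio at 0.05. In all, 5 pairs were compared, and the smallest adjusted p was 0.375 (exact permutation tests, Benjamini-Hochberg over the 5 pairs). The log2 ratio of Rpl36al to Rpl36a was 0.25 ± 0.15 (SD, n = 3) in the mAktDKO mice and 0.38 ± 0.12 (SD, n = 3) in the control mice. The groups overlapped, with a difference of -0.12 that lay between -0.20 (without mAktDKO mouse 1) and -0.05 (without mAktDKO mouse 2). That of Rpl22l1 to Rpl22 was -1.46 ± 0.25 (SD, n = 3) and -1.25 ± 0.21 (SD, n = 3), a difference of -0.21 with overlapping groups, which lay between -0.33 (without control mouse 2, and likewise without mAktDKO mouse 1) and -0.08 (without mAktDKO mouse 3). That of Rpl7l1, a protein linked to ribosome assembly, to Rpl7 was -2.97 in both groups.

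Rps4l, a paralog of Rps4x, had the highest log2 fold change of all members, 0.55, but it rested on few reads (SE 0.32, edgeR adjusted p = 0.311) and was 0.25 without control mouse 2. It had 2.98, 3.59 and 2.40 CPM in mAktDKO muscle, compared with 1.12, 2.48 and 2.57 CPM in control muscle, where control mouse 2 was well below the others. Its log2 ratio to Rps4x was higher in all mAktDKO mice than in all control mice (difference 0.75, two-sided p = 0.1 by exact permutation, the smallest possible, and 0.375 adjusted over the 5 pairs), and the difference was 0.32 without control mouse 2.

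Several members could not be measured apart from a near-identical copy, and their values are uncertain. Rps27, a zinc-finger protein of the small subunit, had between 2.38 and 9.99 counts per mouse, while the copy Rps27rt had between 645 and 992. The coding sequences of both are identical over all 255 bases, and 98.7% of the 37-base windows of the Rps27 transcript occur in Rps27rt, so the estimate of the counts had almost nothing by which to divide the reads. The starts of the coding sequences are printed below with the paralog Rps27l, in which 18 of the first 60 bases, in capitals, differ.

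Rps27: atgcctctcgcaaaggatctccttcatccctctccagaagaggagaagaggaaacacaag

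Rps27rt: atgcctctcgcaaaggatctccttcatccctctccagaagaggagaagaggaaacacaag

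Rps27l: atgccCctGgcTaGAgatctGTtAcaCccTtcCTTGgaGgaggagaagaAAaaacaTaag

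The transcripts lie on chromosome 3 from 90212671 to 90213651, on chromosome 9 from 114982366 to 114982739 and on chromosome 9 from 66946086 to 66949512 of GRCm38. Rps27l, which can be told apart, had 19.3 ± 1.00 CPM (SD, n = 3) in mAktDKO muscle, compared with 17.1 ± 2.69 CPM (SD, n = 3) in control muscle (log2 fold change 0.17, edgeR adjusted p = 0.421), and the log2 fold change was 0.05 without control mouse 2 and 0.27 without control mouse 3. Rpl26 had 35.1 to 124 counts and the copy Gm15772 970 to 1294, Rpl30 had 38.7 to 97.8 and the copy Gm12191 650 to 965, and Rpl34 had 45.7 to 109 and Rpl34-ps1 456 to 653. For these the row that bears the gene's name held the smaller part of the reads. With the copy added, a step chosen after seeing the data, the log2 fold change of Rps27 was 0.21, that of Rpl30 changed from -0.06 to 0.02, that of Rpl26 from 0.12 to -0.12, and that of Rpl34 from 0.29, the fifth highest of the family, to 0.05. That of Rpl31 with Rpl31-ps12 was 0.31 (edgeR adjusted p = 0.102), beside 0.29 alone. In 9 tested members under 50% of the windows were their own in the table (Rpl14, Rpl22l1, Rpl26, Rpl30, Rpl31, Rpl34, Rpl37rt, Rplp2 and Rps27rt).

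Some ribosomal proteins bear symbols that the rule does not take in. Fau encodes a ubiquitin-like protein fused to a small subunit protein and had 46.2 ± 2.85 CPM (SD, n = 3) against 54.0 ± 3.96 CPM (SD, n = 3), with groups that did not overlap (log2 fold change -0.23, edgeR adjusted p = 0.166). Rack1, a scaffold on the small subunit listed under its older symbol Gnb2l1, had a log2 fold change of -0.08, which turned positive with library totals and was -0.01 without control mouse 2 and -0.16 without control mouse 3.

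Genes that work with the family were examined by the same counts. Of 24 other mRNAs with a TOP tract, such as elongation factors, 12 were lower and 12 higher (median log2 fold change 0.01), and none passed the adjusted p of 0.01 or 0.05 in edgeR, with 4 lower and 4 higher at an unadjusted p under 0.05 (16.7% each, background 13.1% and 11.4% of all tested genes). With library totals their median was 0.15, beside 0.16 for all genes. Leaving out 1 mouse turned its sign: it was -0.02 without control mouse 3 and -0.03 without mAktDKO mouse 3, and 0.05 without control mouse 2. Among the 12 higher ones, the elongation factor Eef1a1 had 650 ± 40.7 CPM (SD, n = 3) in mAktDKO muscle, compared with 485 ± 47.1 CPM (SD, n = 3) in control muscle (log2 fold change 0.42, edgeR adjusted p = 0.0637). Of 19 genes that control the translation of TOP mRNAs, 13 were lower and 6 higher (median -0.07), with 7 lower (36.8%, background 13.1%) and 2 higher (10.5%, background 11.4%) at an unadjusted p under 0.05. This median turned to 0.07 with library totals, and was -0.18 without control mouse 3, -0.11 without mAktDKO mouse 1 and -0.13 without mAktDKO mouse 3. Rptor and Mtor, subunits of mTOR complex 1, had log2 fold changes of -0.29 and -0.29, and Eif4ebp1, which encodes the translation repressor 4E-BP1, had one of 0.48 (adjusted p between 0.104 and 0.141 from edgeR).

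Of 22 chaperones and late assembly factors of ribosomal proteins, 18 were lower and 4 higher, with a median of -0.16 and 5 at an unadjusted p under 0.05, all lower (22.7%, background 13.1%). The median was -0.02 with library totals and -0.10 without control mouse 2. Eif6, which keeps new large subunits from joining small ones, had a log2 fold change of -0.43 and Aamp one of -0.41 (adjusted p 0.0836 and 0.0908 from edgeR). Of 9 transcriptional regulators of ribosomal protein genes, 7 were higher (median 0.18, and 0.31 with library totals), 4 of them at an unadjusted p under 0.05 (44.4%, background 11.4%), and in 6 the groups did not overlap (66.7%, background 14.5%). Myc measured 9.19, 8.45 and 8.71 CPM in the 3 mAktDKO mice against 4.12, 5.33 and 4.99 CPM in the 3 control mice. All mAktDKO mice lay above all control mice (log2 fold change 0.87, edgeR adjusted p = 0.0396), which passes 0.05 and not 0.01.

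The ribosomal proteins of mitochondria stand beside the cytosolic family as the nearest set. In mAktDKO muscle 69 of the 77 were lower, and the median of their log2 fold changes was -0.27. With library totals it was -0.13. In 40 the groups did not overlap, all lower (51.9%, background 16.6% lower and 14.5% higher), beside 20 lower and 12 higher of the 84 cytosolic members. Mrps26 had 13.9, 11.3 and 12.3 CPM against 22.0, 19.5 and 19.0 CPM (log2 fold change -0.69, edgeR adjusted p = 0.0396). The difference between the 2 families was not tested.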

How the data were processed

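From each EDL, the authors prepared a directional library after rRNA depletion and sequenced 37 bp from both ends. Per the labels, STAR 2.6.1b, RSEM 1.3.1 and mm10 were used, and the annotation is not given in the sources used here. The deposited values are estimated counts per gene, not scaled between mice. RSEM divides a read that matches several genes among them.

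Estimated counts were rounded, filtered with filterByExpr (minimum count 10), scaled (TMM) and compared by quasi-likelihood testing in edgeR 4.0.16 (R 4.3.3) with Benjamini-Hochberg adjustment over 12892 genes; DESeq2 1.42.0 was an alternative. Steps were tested on simulated data. CPM values use the unrounded counts. At these depths 3 counts lie at 0.194 to 0.218 CPM, for counting error only. Ratios of paralogs were compared by exact permutation. Transcript lengths, GC content, shared windows and coding sequences came from GENCODE M21 (GRCm38), and start windows from RefSeq. Lengths were found for 12436 of the 12892 genes.

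The named genes were Akt1, Akt2, the paralog pairs, members past 0.05, the 5 highest and 5 lowest tested members by fold change, the 5 highest by level per length, Fau, Rack1 and up to 3 per other list; other members named were chosen after their values were seen. Some genes are not reported here. The members and lists were chosen with earlier results of these data known. Control columns carry the numbers 2 to 4 and stand for the group. The p-values measure the spread between these mice.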

Additional observations from a re-analysis of the deposited data

How the results depend on the processing

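No paired analysis was possible because control mice bear other numbers in the table than in the labels. The count of all genes called at an adjusted p under 0.01 was 341 with DESeq2, 32 without the filter on low counts, 152 at a threshold of 0.05, and between 0 and 8 when 1 mouse was left out. It was 8 without control mouse 2 and 0 without any 1 of the mAktDKO mice. The count of ribosomal protein members called at 0.01 was 1 with DESeq2 and 0 under the other settings and without any 1 mouse. At 0.05 it was 0 in the main comparison, 8 with DESeq2, 2 with library totals, 2 without the filter, 1 with the length trend removed, 1 with at least 10 counts in every mouse, 1 without control mouse 4 and 0 under the others. Their median log2 fold change was 0.090 with library totals, 0.042 with the length trend removed, and between -0.07 and -0.02 when 1 mouse was left out. Without control mouse 2 it was -0.02. The difference between the medians of the large and small subunit, -0.01, lay between -0.04 and 0.02 without 1 mouse, and that of the log2 ratio of Rpl3l to Rpl3 between -0.75 and -0.41. With library totals, which move all genes in the same direction, 29 of the 84 tested members turned from lower to higher and 0 the other way. Of the genes named by the rule, Rpl10 (0.088), Rpl22 (0.019), Rpl36a (0.064), Rpl7 (0.091), Rpl7l1 (0.090), Rps4x (0.012), Rpl23a (0.024) and Gnb2l1 (0.056) changed sign. With the length trend removed, Rpl10 (0.036), Rpl36a (0.011), Rpl7 (0.042) and Rpl7l1 (0.034) did. Leaving out 1 mouse turned the sign of Rpl7 (0.0064 without control mouse 2, over a range of -0.10 to 0.0064), of Rplp1 (-0.0084 and -0.010 without control mouse 3 and 4, over a range of -0.010 to 0.16) and of the ratio of Rpl7l1 to Rpl7 (-0.045 and -0.036 without mAktDKO mouse 2 and 3 and -0.015 without control mouse 2, over a range of -0.045 to 0.084). These genes were not called in any setting, and the cause was not tested. Removal of the GC trend, the addition of rows that share reads and the restriction to members with windows of their own were chosen after seeing the data, and the last 2 left the members' median at -0.05 under both. With 3 mice a group, exact tests of a single value cannot go below 0.1.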
